A study of Mus musculus with 12 samples.

Results

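Socs3 and 8 further genes of interleukin-6 (IL-6) family signalling were followed in ET cells, a mouse cell line labelled as cortical epithelium of the fetal thymus, given TCDD or its solvent for 2, 4 or 6 h. The genes were the ligands Il6 and Lif, the receptor chains Il6st and Osmr, the transcription factor Stat3, and the inhibitors Socs1, Socs2, Socs3 and Cish. They were taken by gene symbol: 9 of the 12393 genes named on the array, with 18 probe sets, of which 17 passed a filter on low levels and were tested. The set was chosen by the level of Socs3, which differed between TCDD and solvent at 2 h in these same arrays. Differences at 2 h are therefore given as a description with no test, for all 9 genes, and tests were made at 4 and 6 h and over time.

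IL-6 and its relatives, among them leukaemia inhibitory factor (Lif) and oncostatin M, bind receptors that share the signalling chain gp130, encoded by Il6st. Bound receptors activate Janus kinases (JAKs), which phosphorylate STAT3, and STAT3 then enters the nucleus and switches on target genes. Socs3 is one of those targets: its protein binds gp130 and the JAKs and shuts the signal down, so its RNA is widely read as a trace of recent STAT3 activity, although other pathways also induce it. In the thymus, IL-6 and Lif are made by epithelial and other stromal cells.

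TCDD, a dioxin, activates AhR, the aryl hydrocarbon receptor, which is a transcription factor switched on by small ligands. The cells were given 5 nM TCDD, or 1,4-dioxane at 0.05% by volume with no TCDD, which made 6 groups with 2 arrays in each, called biological duplicates in the design text. It does not say which steps were repeated, so p-values measure only the spread between arrays, which may be in part technical. All arrays come from 1 cell line grown in culture, which limits them as a model of thymic epithelium.

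Labels of 3 arrays were in conflict. For the second TCDD array of 4 h the treatment entry gave the solvent, against its title, and for the 2 solvent arrays of 6 h the description gave 4 h, against title and time entry. Titles decided the group. Cyp1a1, an enzyme that AhR induces, lay at a log2 level of 9.3 to 11.1 on the 6 TCDD arrays and of 4 to 5.5 on the 6 solvent arrays, without overlap. The second TCDD array of 4 h read 10.2, on the side of its title. Of the cortical epithelial markers on the array, 7 of 12 lay above the filter, and Epcam, Krt18, Ly75, Prss16 and Enpep lay below it. Of fibroblast and mesenchyme markers 14 of 14 did, and their median level ranked above that of 98.9% of all probe sets. The cortical list was thus divided: Epcam and Krt18 were among those against the labelled cell type, while 7 lay above the filter. The median level of the cortical list was at percentile 39.9. These markers do not settle the cell type, and the cells are called ET cells below. Clustering on the values of all other genes, cut into 4 clusters, put 7 arrays of all 3 times and both treatments into 1 cluster, called the larger set here. The other clusters held both second arrays of 2 h, the first TCDD array of 4 h, and both second arrays of 6 h. These 5 were pooled as the smaller set, so they need not be alike and their clusters follow time. The metallothionein Mt1 lay at 7.1 to 7.4 in the larger set and at 9.6 to 10.8 in the smaller. The first arrays of both groups at 2 and 6 h, both 4 h solvent arrays and the second 4 h TCDD array formed the larger set. Values are therefore also given with the set as a block in the fit, or within a set. The sets came from these data, so p-values with that block can be too small.

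Promoters of the 3 genes whose difference at 2 h exceeded 1 on the log2 scale are shown to give the sequence context of the results: the 250 bases before the start of each gene, 5′ to 3′ on the gene's strand, from RefSeq on the mouse build GRCm38.p6. They lie at chr11:117969367-117969616 on the minus strand for Socs3, chr5:30012864-30013113 on the plus strand for Il6 and chr11:4257318-4257567 on the plus strand for Lif. Capitals mark matches to motifs that were searched on both strands: GCGTG, the core of the AhR response element, TTCNNNGAA, the core that STAT proteins bind, and TGANTCA, the AP-1 site.
Socs3: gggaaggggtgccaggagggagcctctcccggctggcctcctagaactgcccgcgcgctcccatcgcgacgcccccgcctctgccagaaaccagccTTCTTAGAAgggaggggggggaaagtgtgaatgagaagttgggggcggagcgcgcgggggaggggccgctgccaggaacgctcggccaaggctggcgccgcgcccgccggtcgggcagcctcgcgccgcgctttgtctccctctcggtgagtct
Il6: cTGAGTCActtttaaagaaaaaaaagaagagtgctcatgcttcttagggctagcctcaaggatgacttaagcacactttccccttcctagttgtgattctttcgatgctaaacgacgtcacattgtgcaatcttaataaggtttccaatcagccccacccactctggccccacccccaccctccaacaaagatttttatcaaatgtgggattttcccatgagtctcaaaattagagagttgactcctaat
Lif: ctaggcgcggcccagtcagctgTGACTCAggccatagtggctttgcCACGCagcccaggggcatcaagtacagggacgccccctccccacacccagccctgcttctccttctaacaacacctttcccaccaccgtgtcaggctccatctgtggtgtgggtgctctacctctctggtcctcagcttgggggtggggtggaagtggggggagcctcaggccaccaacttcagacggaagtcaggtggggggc
The Socs3 promoter held a STAT motif, TTCTTAGAA, from 154 to 146 bases before the start. The Il6 promoter held an AP-1 motif, TGAGTCA, from 249 to 243 bases before the start. The Lif promoter held the AP-1 motif TGACTCA from 228 to 222 bases before the start, and from 204 to 200 bases the letters CACGC, which read GCGTG on the other strand. No matches overlapped. RefSeq's table held promoters of 8 of the 9 genes; those of Socs1, Cish, Stat3, Il6st and Osmr held none of the 3 motifs in this window. Of 32851 promoters of this length in the table, 28.2% held GCGTG, 7.02% TTCNNNGAA and 6.75% TGANTCA. A match describes the letters and does not show that a factor binds there.

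Over the 17 tested probe sets, TCDD against solvent gave a median log2 difference of 0.05 at 4 h, 0.1 at 6 h and 0.02 for the mean of 4 and 6 h, against 0, -0.05 and 0 over all 15844 tested probe sets. None of the 17 passed an adjusted p of 0.05 (limma, Benjamini-Hochberg over all tested probe sets) at 4 h, at 6 h or for the mean of both. The background was low as well: 0.0126% of all tested probe sets passed at 4 h (2, or 1 with the replicate number as a block), 0.00631% at 6 h and 0.0694% for the mean (11, or 7 with that block). At an unadjusted p under 0.05, 2 of the 17 were found at 4 h, 0 at 6 h and 2 for the mean, against 344, 340 and 553 of all. With the array set as a block 0 of the 17 passed as well, beside 0.0442%, 0.0505% and 0.107% of all. With 2 arrays a group, a probe set that did not pass is not shown to be unchanged.

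**Figure D1:**
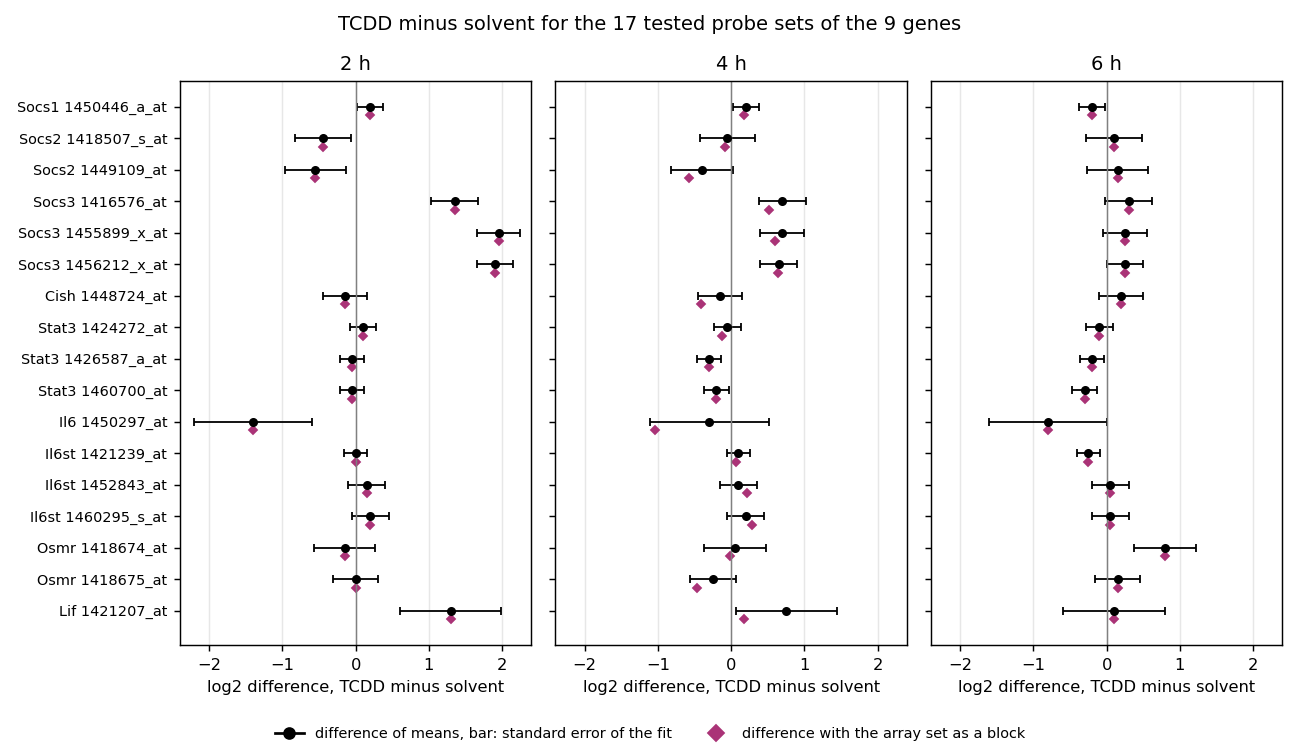
Differences in log2 level, TCDD minus solvent, for the 17 tested probe sets at 2, 4 and 6 h (horizontal axes; 2 against 2 arrays). Black points are differences of group means with the standard error of the fit, and purple diamonds the differences with the array set as a block; the 3 Socs3 probe sets lie furthest right at 2 h and near 0.3 at 6 h, and Il6 lies left of 0 at every time.

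The inhibitor Socs3 was higher with TCDD at 2 h on all of its 3 probe sets. Probe set 1456212_x_at read 6.8 and 6.3 in solvent and 8.3 and 8.6 with TCDD. Probe set 1455899_x_at read 7.8 and 7.2 in solvent and 9.2 and 9.7 with TCDD. Probe set 1416576_at read 7.0 and 6.6 in solvent and 7.8 and 8.5 with TCDD. On each, both TCDD arrays lay above both solvent arrays. This held for 7.16% of all tested probe sets at 2 h and is part of what chose the gene. Of the other probe sets only that of Socs1 lay above at 2 h and none of the 17 lay below, against 6.68% of all. The differences were 1.90 ± 0.25 (SE, n = 2 against 2; 3.73-fold), 1.95 ± 0.30 (3.86-fold) and 1.35 ± 0.32 (2.55-fold) in the same order. Array levels measure RNA of the whole culture, so more cells with the RNA and more of it per cell cannot be told apart. The suffix x_at marks probe sets with probes that may also match other transcripts.

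The 2 h difference of Socs3 was present in both array sets and was larger in the smaller one. Between the single arrays of the larger set it was 1.5 (1456212_x_at), 1.4 (1455899_x_at) and 0.8 (1416576_at), and between those of the smaller set 2.3, 2.5 and 1.9. In the smaller set the TCDD array was the highest of the 12 on every probe set and the solvent array the lowest.

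**Figure D2:**
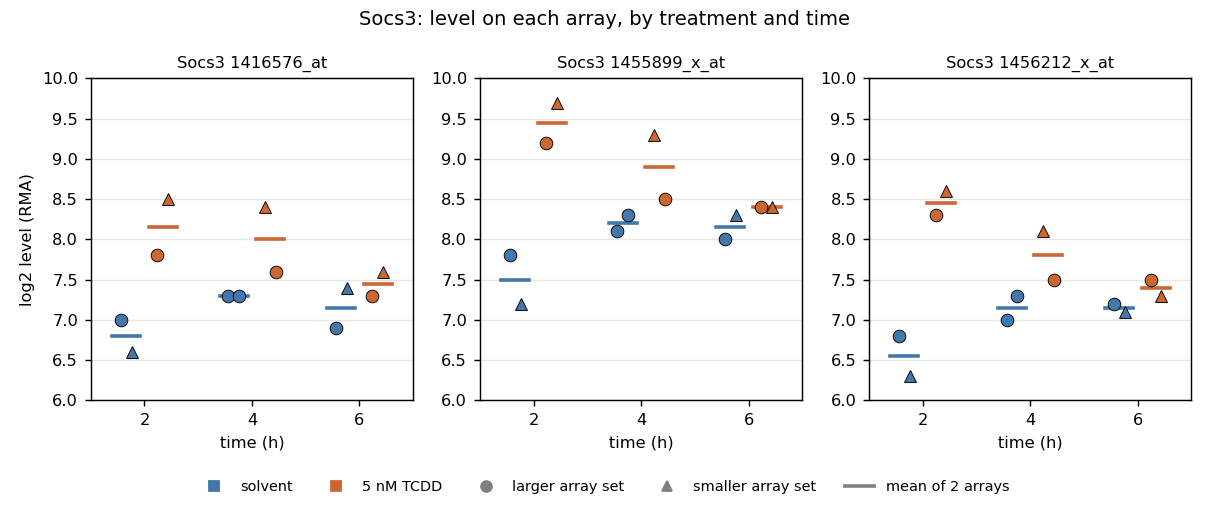
Log2 level of Socs3 on each of the 12 arrays (vertical axis) by time in hours, with 1 panel for each probe set. Blue is solvent, orange 5 nM TCDD, circles and triangles the larger and smaller array set, and bars means of 2 arrays; orange lies well above blue at 2 h and by 0.25 to 0.3 at 6 h.

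At 4 h the level of Socs3 with TCDD was above that in solvent. Probe set 1456212_x_at read 7.0 and 7.3 in solvent and 8.1 and 7.5 with TCDD, a difference of 0.65 ± 0.25 (1.57-fold). Probe set 1455899_x_at read 8.1 and 8.3 in solvent and 9.3 and 8.5 with TCDD, a difference of 0.70 ± 0.30. Probe set 1416576_at read 7.3 and 7.3 in solvent and 8.4 and 7.6 with TCDD, a difference of 0.70 ± 0.32. The TCDD arrays again lay above the solvent arrays on all 3 probe sets, as for 7.95% of all tested probe sets at 4 h. The unadjusted limma p was 0.0257, 0.0411 and 0.0532 in this order and the adjusted p 0.973 for each (0.1 to 1 over 20 alternative settings). Much of the difference came from the first TCDD array: without it, the differences were 0.35, 0.30 and 0.30, and without the second, whose labels conflict, 0.95, 1.10 and 1.10. With the array set as a block they were 0.64, 0.60 and 0.51.

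At 6 h the levels of Socs3 lay close together. Probe set 1456212_x_at read 7.2 and 7.1 in solvent and 7.5 and 7.3 with TCDD. Probe set 1455899_x_at read 8.0 and 8.3 in solvent and 8.4 and 8.4 with TCDD. Probe set 1416576_at read 6.9 and 7.4 in solvent and 7.3 and 7.6 with TCDD. Treatments did not overlap on the first 2, as for 9.69% of all tested probe sets at 6 h (1.17% at both 4 and 6 h), and overlapped on the third. The differences were 0.25 ± 0.25, 0.25 ± 0.30 and 0.30 ± 0.32, each no more than about 1 standard error from 0 (adjusted p = 1). For the mean of 4 and 6 h they were 0.45 ± 0.17 (95% interval 0.06 to 0.84), 0.48 ± 0.21 and 0.50 ± 0.23, with a limma adjusted p of 0.993 for each (0.31 to 1 over 19 alternative settings).

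As a description, the group means of both treatments are given for 1 probe set. On probe set 1456212_x_at the mean in solvent was 6.55 ± 0.35 (SD, n = 2) at 2 h, 7.15 ± 0.21 at 4 h and 7.15 ± 0.07 at 6 h. With TCDD it was 8.45 ± 0.21 at 2 h, 7.80 ± 0.42 at 4 h and 7.40 ± 0.14 at 6 h. The lowest and the highest of these means were both at 2 h, the values that chose the gene. The change from the 4 h to the 6 h effect, which leaves out the 2 h arrays that chose the gene, was -0.40 ± 0.35, -0.45 ± 0.42 and -0.40 ± 0.45 on the 3 probe sets in the order used above and was not past the test (limma adjusted p = 0.986). Whether the 2 h effect differs from the later ones was not tested, since the 2 h values chose the gene.

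None of the other inhibitors of the family had a difference as large as that of Socs3 at 2 h. Socs1, which blocks JAK activity mainly downstream of interferons, lay near background: it read 4.5 and 4.5 in solvent and 4.7 and 4.7 with TCDD at 2 h. It read 4.8 and 4.7 in solvent and 5.2 and 4.7 with TCDD at 4 h, and 4.8 and 4.8 in solvent and 4.7 and 4.5 with TCDD at 6 h. The difference was 0.20 ± 0.18 at 4 h and -0.20 ± 0.18 at 6 h, no more than slightly over its standard error (adjusted p = 0.973 and 1). Socs2, an inhibitor of growth hormone signalling, was measured by 2 probe sets. Probe set 1449109_at ran from 4.1 to 5.7, with the highest and the lowest reading in the second 2 h solvent array and the first 4 h TCDD array. Probe set 1418507_s_at ran from 3.2, in that same 4 h TCDD array, to 5.0. At 2 h the differences were -0.55 ± 0.42 and -0.45 ± 0.38 in this order. They were -0.1 and 0 within the larger array set, and -1.0 and -0.9 within the smaller. The mean of 4 and 6 h differed by -0.12 ± 0.30 and 0.03 ± 0.27 (adjusted p = 0.993 and 1), with intervals of -0.79 to 0.54 and -0.57 to 0.62.

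Cish, a SOCS-family target and inhibitor of STAT5 signalling, read 5.7 and 6.1 in solvent and 5.5 and 6.0 with TCDD at 2 h. It read 5.6 and 5.6 in solvent and 5.8 and 5.1 with TCDD at 4 h, and 5.1 and 5.7 in solvent and 5.4 and 5.8 with TCDD at 6 h. The treatments overlapped at every time, and the mean of 4 and 6 h differed by 0.02 ± 0.21 (adjusted p = 0.995, interval -0.45 to 0.50). Cish was higher in the smaller array set, by 0.52, and with the set as a block the mean of 4 and 6 h was -0.10 ± 0.10, with the sign turned. At 4 h the difference was -0.15 ± 0.30 without the block and -0.41 ± 0.15 with it, neither past the test.

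The ligand Il6 read lower with TCDD at every time in each array set that held both treatments. The sets themselves differed by about as much as the treatments at 2 h, and by more than those at 4 and 6 h. Il6 (1450297_at) read 6.3 and 8.2 in solvent and 4.7 and 7.0 with TCDD at 2 h. It read 6.0 and 6.0 in solvent and 6.1 and 5.3 with TCDD at 4 h, and 6.0 and 7.4 in solvent and 5.4 and 6.4 with TCDD at 6 h. The treatments overlapped at each time. The 3 highest readings, 8.2, 7.4 and 7.0, were all from the smaller set, and the set difference of 1.48 stood against a median absolute one of 0.18 over all tested probe sets, of which 0.814% exceeded 1. Within sets the difference at 2 h was -1.6 and -1.2 in the larger and smaller set, at 4 h -0.7 in the larger and at 6 h -0.6 and -1.0. Each compares 1 TCDD array with 1 solvent array, or with 2 at 4 h. How many other probe sets kept 1 direction in this way was not counted. No solvent array of 4 h was in the smaller set.

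Without the set block, the mean of 4 and 6 h for Il6 was -0.55 ± 0.57 (limma adjusted p = 0.993, interval -1.83 to 0.73). With the set as a block it was -0.92 ± 0.23 (1.89-fold lower), over 1.5 times as large, and still not past the test (adjusted p = 0.419, the lowest of 19 alternative settings, which reached up to 1). With the replicate number as a block instead, the mean of 4 and 6 h was -0.55 ± 0.16 (limma adjusted p = 0.55). In the fit without a block, 99.4% of all tested probe sets had a higher difference than Il6. Markers of macrophages and other leukocytes, which also make IL-6, were low: 4 of 7 lay above the filter, Ptprc, Adgre1 and Itgam lay below it, and the mean over the list ran from 4.46 to 4.63 in solvent and from 4.41 to 4.92 with TCDD. By array set it ran from 4.41 to 4.61 in the larger and from 4.57 to 4.92 in the smaller, which was also the set with more Il6. Their part in the Il6 result was not tested.

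The ligand Lif, which signals through its own receptor and gp130, read higher with TCDD at 2 h. Probe set 1421207_at read 4.8 and 5.8 in solvent and 5.5 and 7.7 with TCDD, so the treatments overlapped, and the difference was 1.30 ± 0.69 (2.46-fold), with 0.7 in the larger and 1.9 in the smaller set. At 4 h it read 4.8 and 4.9 in solvent and 6.4 and 4.8 with TCDD. At 6 h it read 4.8 and 5.3 in solvent and 4.9 and 5.4 with TCDD. Both high readings, 7.7 and 6.4, were TCDD arrays of the smaller set, and all 7 arrays of the larger set lay between 4.8 and 5.5. The 4 h difference of 0.75 ± 0.69 (adjusted p = 0.973) was 0.17 ± 0.38 with the set block and -0.05 without the first TCDD array. At 6 h it was 0.10 ± 0.69 (adjusted p = 1). The other probe set of Lif, 1450160_at, had a mean of 3.95, just under the filter value of 3.98, and was not tested; it ran from 3.6 to 4.2.

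**Figure D3:**
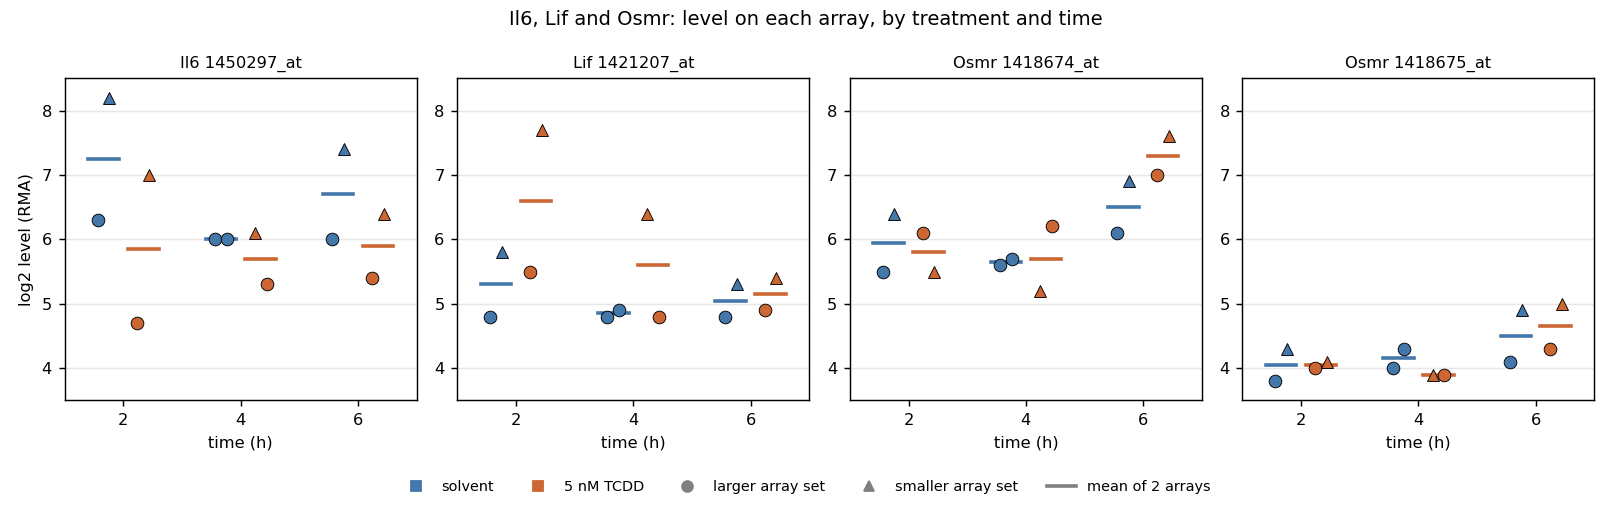
Log2 level of Il6, Lif (tested probe set) and both probe sets of Osmr on each of the 12 arrays (vertical axis) by time in hours. Colours, symbols and bars are as in the plot of Socs3; triangles (smaller set) lie above circles of the same treatment and time for Il6 and for Lif, and Osmr 1418674_at is highest at 6 h.

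Among the receptor chains, Osmr, which pairs with gp130 to bind oncostatin M, spanned the widest range, with its highest levels at 6 h. Probe set 1418674_at read 5.5 and 6.4 in solvent and 6.1 and 5.5 with TCDD at 2 h. It read 5.6 and 5.7 in solvent and 5.2 and 6.2 with TCDD at 4 h, and 6.1 and 6.9 in solvent and 7.0 and 7.6 with TCDD at 6 h. Treatments overlapped at 2 and 4 h. At 6 h both TCDD arrays lay above both solvent arrays, as for 9.69% of all tested probe sets. The 6 h difference was 0.80 ± 0.42 (1.74-fold, limma adjusted p = 1), with 0.9 in the larger and 0.7 in the smaller set. Averaged over both treatments, the level at 6 h was 1.02 ± 0.30 above that at 2 h (2.03-fold, 4 arrays against 4, interval 0.35 to 1.70). Its limma adjusted p was 0.433 (0.121 to 0.808 over 19 alternative settings). The other probe set of Osmr, 1418675_at, ran from 3.8 to 5.0 and gave 0.53 ± 0.22 for the same change (adjusted p = 0.443). With TCDD it gave 0.15 ± 0.31 at 6 h. At 4 h its TCDD arrays, 3.9 and 3.9, lay below its solvent arrays, 4.0 and 4.3, as for 11.1% of all tested probe sets.

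Il6st, the shared chain gp130, stayed within narrow ranges. Probe set 1452843_at read 8.0 to 8.8 over the 12 arrays, 1460295_s_at 5.9 to 6.6 and 1421239_at 4.6 to 5.0. At 2 h the differences were 0.15 ± 0.25, 0.20 ± 0.25 and 0 ± 0.16 in this order. The mean of 4 and 6 h with TCDD differed from solvent by 0.08 ± 0.18, 0.12 ± 0.18 and -0.07 ± 0.11 (adjusted p = 0.993 for each). Their intervals ran from -0.33 to 0.52 in all. On 1421239_at alone both TCDD arrays lay below both solvent arrays at 6 h (4.7 and 4.7 against 5.0 and 4.9), as for 9.66% of all tested probe sets.

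Stat3, the transcription factor of the pathway, read slightly lower with TCDD at the later times, without passing the test. Probe set 1426587_a_at read 8.3 and 8.2 in solvent and 7.8 and 8.1 with TCDD at 4 h, and 8.4 and 8.5 in solvent and 8.3 and 8.2 with TCDD at 6 h. TCDD arrays lay below solvent arrays at both times, as for 1.63% of all tested probe sets (11.1% at 4 h). Probe set 1460700_at read 8.1 and 7.8 in solvent and 7.7 and 7.8 with TCDD at 4 h, and 8.0 and 8.2 in solvent and 7.8 and 7.8 with TCDD at 6 h. For the mean of 4 and 6 h both gave -0.25 ± 0.12 (1.19-fold lower, adjusted p = 0.993). At 2 h they differed by -0.05 each. The third probe set, 1424272_at, lay near the filter at 3.9 to 4.2 and gave -0.07 ± 0.12. RNA levels do not show how much of the STAT3 protein was phosphorylated.

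Across time, no probe set of the 9 genes passed, and neither did any other on the array: 0% of the 15844 passed at 4 h or 6 h against 2 h in limma, averaged over both treatments (1 with the array-set block at 6 h). At an unadjusted p under 0.05 there were 2 of the 17 for 6 h against 2 h, both of Osmr, beside 1753 of all, and 0 of 17 beside 450 of all for 4 h against 2 h. Lif (1421207_at) was lower at 6 h than at 2 h by -0.85 ± 0.49 (adjusted p = 0.498). Over 19 alternative settings this ran from -1.40 to -0.30, the smallest without the second 2 h TCDD array, whose level was 7.7. For Socs3 the same difference ran from -0.18 ± 0.23 to -0.22 ± 0.17. It is given as a description, since the 2 h arrays chose the gene. It averages over opposite changes in the treatments. On 1456212_x_at the mean rose from 6.55 to 7.15 in solvent and fell from 8.45 to 7.40 with TCDD. The change of the TCDD effect from 4 to 6 h passed for 0% of all tested probe sets, with 0 of the 17 and 99 of all at an unadjusted p under 0.05.

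Other genes of the pathway were read from 5 lists, and no probe set of any list passed in any tested comparison, at the background rates given above. The IL-6 family ligands (3 of 7 genes tested, 5 probe sets) had a median of 0.05 for the mean of 4 and 6 h. The 3 genes were Ctf1, or cardiotrophin 1, at -0.33 ± 0.28 (-0.16 with the array-set block), Clcf1 at 0.08 ± 0.19, and Il11 at 0. The receptors (4 of 6 genes, 6 probe sets) had a median of 0.05, with Il27ra at 0.15 ± 0.17. Il6ra, which binds IL-6 itself, was at -0.15 ± 0.13 on 1422270_a_at and at 0.02 ± 0.21 on 1452416_at. The other inhibitors (12 of 12 genes, 20 probe sets), SOCS, PIAS and phosphatase genes, had a median of 0. They ran from -0.23 for Ptpn11 (1427699_a_at) to 0.30 for Pias2. Ptpn11 gave 0.17 ± 0.18 on 1421196_at and -0.10 ± 0.12 on 1451225_at. The STAT3 targets (18 of 20 genes, 32 probe sets) had a median of -0.11 and ran from -0.60 to 0.35, so some read higher with TCDD. The largest differences among them were lower with TCDD: Ccl2, a chemokine that attracts monocytes, at -0.60 ± 0.22, haptoglobin (Hp) at -0.53 ± 0.30 and Cebpd (1423233_at) at -0.47 ± 0.26 (adjusted p = 0.993 for each). With the array-set block Ccl2 was at -0.72, Cebpd (1423233_at) at -0.58 and Hp at -0.34. The other tested Cebpd probe set, 1456605_at, gave -0.15 ± 0.17 without the block. Also without it, Cebpb, the highest of the list, gave 0.35 ± 0.15 on 1418901_at and 0.35 ± 0.22 on 1427844_a_at. On the Ccl2 probe set 1420380_at the level was 8.0 and 8.0 in solvent and 7.4 and 7.5 with TCDD at 4 h, and 8.1 and 8.8 in solvent and 7.6 and 8.0 with TCDD at 6 h.

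The kinases and STATs (8 of 10 genes, 13 probe sets) had a median of -0.03, and the largest difference of all lists was in Jak1, a kinase bound to gp130. Jak1 probe set 1433805_at read 8.2 and 8.5 in solvent and 9.1 and 8.9 with TCDD at 2 h. It read 8.0 and 7.9 in solvent and 8.3 and 9.6 with TCDD at 4 h, and 8.5 and 8.7 in solvent and 9.8 and 10.3 with TCDD at 6 h. At each time the TCDD arrays lay above the solvent arrays, as for 0.467% of all tested probe sets. For the mean of 4 and 6 h, it gave 1.22 ± 0.25 (adjusted p = 0.352), and probe set 1433803_at gave 1.10 ± 0.24 (adjusted p = 0.454). Both passed in 1 of 19 alternative settings. When the first TCDD array of 4 h was left out they gave 1.55 (adjusted p = 0.00473) and 1.38 (adjusted p = 0.0258), and over all settings the adjusted p ran up to 1. The third Jak1 probe set, 1433804_at, had a mean of 3.88, below the filter, and was not tested. Tyk2 and Stat5b (1422103_a_at) gave -0.35 ± 0.18 and -0.35 ± 0.24 (adjusted p = 0.993).

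The genes whose pattern over the 12 arrays was most like that of Socs3 were found from the mean absolute difference between log2 levels, each centred on its own mean, with the 3 Socs3 probe sets averaged. The values describe a likeness and carry no test, since it draws on the 2 h arrays. The closest were Lrig1 at 0.18, Foxq1 at 0.19, Hilpda at 0.22, Oaf at 0.23, Zcchc3 at 0.24 and Tnfaip2 at 0.25, beside a mean absolute deviation of Socs3 itself of 0.46. Lrig1, a membrane inhibitor of growth factor receptors, read 7.3 and 6.9 in solvent and 8.2 and 8.3 with TCDD at 2 h. Lrig1 read 7.7 and 7.8 in solvent and 8.8 and 7.9 with TCDD at 4 h, and 7.6 and 7.6 in solvent and 8.0 and 8.0 with TCDD at 6 h. Like Socs3, it was high on the first 4 h TCDD array and lowest on the second 2 h solvent array. Of the tested probe sets of the other 8 genes, Socs1 was closest to Socs3 at 0.42 and Il6 furthest at 0.91, and only Socs1 and Il6st (1460295_s_at, 0.44) lay under the 0.46 that a gene with no change at all would give.

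**Figure D4:**
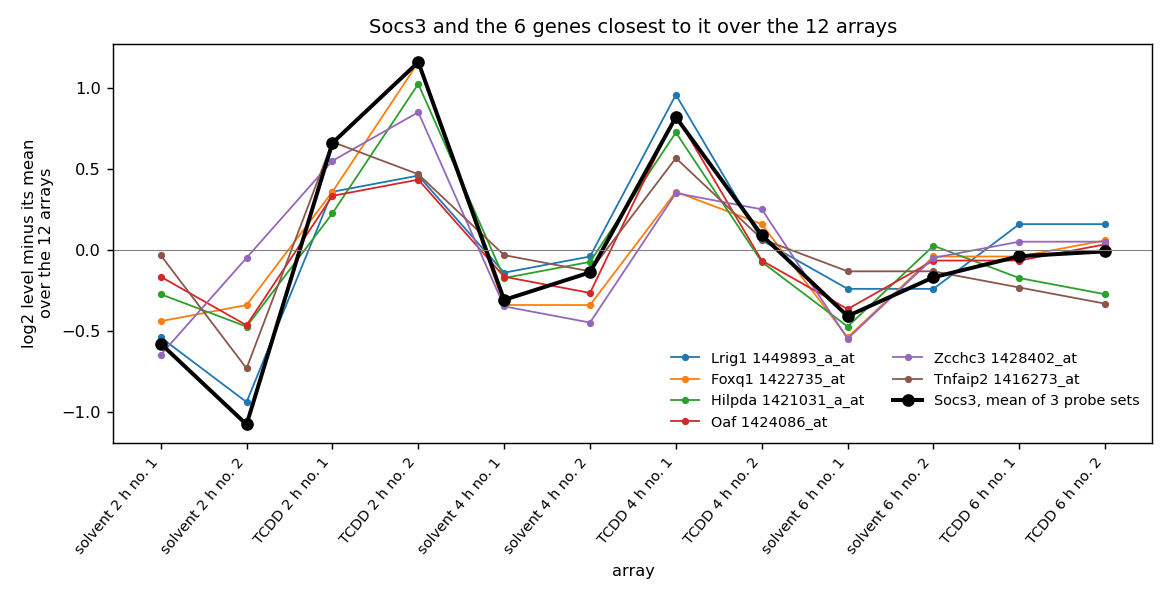
Log2 level minus its own mean over the 12 arrays (vertical axis) for Socs3, the mean of 3 probe sets (black), and for the 6 genes closest to it, array by array. The lines run together, with high points at the TCDD arrays of 2 h and the first TCDD array of 4 h and a low point for Socs3 of -1.08 at the second 2 h solvent array.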

How the data were processed

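RNA of ET cells was measured on 12 Affymetrix arrays. The authors' deposited log2 values, 1 for each probe set and array, come from RMA according to the submitters' processing notes. Its version is not given in the sources used here. The method removes background and equalises the distributions of the arrays, so a shift of all genes together is not visible, and differences near background are compressed. Values carried 1 decimal and ran from 2.2 to 14.1, with a median of 5.1 on every array. Scanner files were not used here. The number of arrays, 2 a group, limits the precision.

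Of 22690 probe sets, 64 controls were set aside, and 20380 of the others had 1 gene symbol in the platform annotation, 691 several and 1555 none. All 9 genes matched RefSeq by gene identifier. The tests used probe sets whose mean reached the 30th percentile, a log2 level of 3.98. limma 3.58.1 in R 4.3.3 was fitted with 6 group means (6 residual degrees of freedom, prior 3.81) and moderated variances. Tests were two-sided, with p-values adjusted by Benjamini-Hochberg over 15844 probe sets in each comparison and an adjusted p under 0.05 taken as passed. Changes over time gave both treatments equal weight. Folds were converted from the log2 differences, and errors are standard errors of the fit. The fit was tested on simulated data with known changes.

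Arrays were clustered by complete linkage over the 15827 tested probe sets of other genes and cut into 4; the largest cluster made 1 array set and all others the second. Replicate numbers were checked for pairing: differences between first and second arrays correlated across probe sets between solvent and TCDD at 0.37 (2 h), 0.16 (4 h) and 0.71 (6 h). All exceed 0.1, so the replicate number was used as a block within each time in an alternative fit, from the data and not the labels. The main fit does not use this pairing. Between groups of different times, which are not pairs, the correlations ran from -0.55 to 0.37. The values at 2 and 4 h do not stand apart from these, so they do not show pairing. Alternatives were no filter or one at the 50th percentile, a second quantile normalization, other variance moderation, both blocks, each array left out, the arrays of 1 time alone, and the solvent arrays of 4 and 6 h together.

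The genes, lists and comparisons were chosen with earlier results of these data known. Named were all probe sets of the 9 genes, any list gene past a test and otherwise up to 3 a list with the largest mean difference over 4 and 6 h, Cyp1a1, and the 6 genes most like Socs3. Cebpb was named in addition, as the highest of the STAT3 targets. Marker lists of medullary epithelium (4 of 7 genes above the filter), thymocytes (4 of 5) and endothelium (1 of 4) were read as well.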

Additional observations from a re-analysis of the deposited data

Results flagged for a closer look

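Socs1 (1450446_a_at) stood out because its TCDD arrays lay apart from the solvent arrays in opposite directions at different times. Both TCDD arrays were above both solvent arrays at 2 h, by 0.2 on the log2 scale, as for 7.16% of all tested probe sets. Both were below them at 6 h, by -0.2, as for 9.66%. The difference between these times was not tested, since the 2 h values were used in choosing the genes. The readings were 4.5 to 4.8, near background, and both differences are of the size of 2 rounding steps of the deposited values.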

How the results depend on the processing

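No probe set of the 9 genes passed in any tested comparison under any setting. Over 1953 pairs of a probe set's comparison and an alternative setting, 17 gave the opposite sign by more than 1 standard error, none of them called. Apart from Cebpb, whose settings are not given, the list genes named kept their side of the threshold for the mean of 4 and 6 h. The exception was Jak1 without the first 4 h TCDD array (1.55 on 1433805_at and 1.38 on 1433803_at).

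Counts over all probe sets moved more. With the replicate block within each time, 1 probe set passed at 4 h instead of 2 and 7 for the mean of 4 and 6 h instead of 11, and at 6 h 1 did as before; it changed no call of the 9 genes. With the array-set block 7 passed at 4 h, 8 at 6 h, 17 for the mean and 1 for 6 h against 2 h instead of 0. On the 4 h arrays alone 0 passed (425 at an unadjusted p under 0.05), on the 6 h arrays alone 0 (613), and 11 at 6 h against the solvent arrays of 4 and 6 h together. With 1 array left out, the count ran from 1 to 59 at 4 h, from 0 to 7 at 6 h and from 1 to 24 for the mean. The 59 (6 higher, 53 lower) came without the second 4 h TCDD array, whose labels conflict, the 24 without the first, and the 1 without the first 4 h solvent array. The causes of these changes were not tested. The number of arrays limits all results. Signal near background limits Socs1, Socs2, Il6st probe set 1421239_at, the second Osmr and Lif probe sets and the third of Stat3. The lower readings of Lif probe set 1421207_at, from 4.8, lay at a similar level.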
